A study of Mus musculus with 32 samples.

Results

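S100 proteins are small calcium-binding proteins with EF-hand motifs that act mostly as dimers. On binding calcium they change shape and attach to target proteins such as annexins, myosins and membrane receptors. In peripheral nerve, S100b is the standard marker of Schwann cells, whereas S100a4 is better known from fibroblasts, immune cells and motile cells. The 10 genes described here are S100a1, S100a3, S100a4, S100a6, S100a8, S100a9, S100a10, S100a11, S100a13 and S100b. They were taken from the table by symbol. S100a4 was chosen by its measured level, already known to be higher with the transgene in these data, and S100b was set beside it as the Schwann marker. Comparisons of transgenic with non-transgenic nerves are therefore given as descriptions of these genes, without a p-value. All 10 were present among the 45706 genes of the count table, and all 10 were among the 15403 that passed the low-count filter.

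The 32 libraries were made from polyadenylated RNA of sciatic nerves, all from mice 6 months old. There were 7 wild types (WT), 9 Sipa1l2-/-, 8 C3-PMP22 and 8 C3-PMP22 Sipa1l2-/- mice, the last named double mutants below. The C3-PMP22 transgene is human PMP22 and serves to model the demyelinating neuropathy CMT1A, for which Sipa1l2, encoding a GTPase-activating protein, was studied as a modifier. The labels name no treatment, and every genotype held both sexes.

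Library totals lay between 11030976 and 16990990 counts. Levels are CPM, counts scaled to library size, after TMM scaling between libraries. Sipa1l2 transcripts ranged from 55.0 to 138 CPM in libraries labelled Sipa1l2-/- and from 65.2 to 122 CPM in WT, so genotype names are those of the labels throughout. Libraries labelled C3-PMP22 female 7 and 8 had almost no Xist (0.109 and 0.366 CPM) but Ddx3y at 147 and 146 CPM, whereas the 15 other libraries labelled female had Xist at 888 to 1466 CPM and no Ddx3y. Column identifiers formed 2 series, 19 plain and 13 with a leading G, and in the double mutant all 5 females were plain and all 3 males were G. The labels give no litter or batch, so p-values measure the spread between these samples. The tissue carried its defining markers, since all 11 Schwann myelin markers were measured, with summed levels of 4773 to 28534 CPM. Skeletal muscle markers, 12 of 12 measured, varied far more, from 18.4 CPM in a Sipa1l2-/- library to 152668 CPM in a C3-PMP22 library.

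The 9 genes on chromosome 3 lie in a cluster of S100 genes, and S100b lies apart on chromosome 10. In GENCODE's annotation of GRCm38, S100b spans chr10:76253853-76261159, S100a4 chr3:90603771-90606045, S100a6 chr3:90612882-90624181 and S100a11 chr3:93520488-93526287, all protein-coding and on the plus strand. Sequences upstream of 3 starts and 1 interval are shown because these genes carry the results below. S100b is the Schwann gene, S100a4 the gene higher with the transgene, S100a6 its closest match across libraries, and S100a1 and S100a13 are transcribed away from each other. They are from RefSeq on GRCm38.p6, 250 bases before the start on the gene's own strand, where 9 of the 10 genes were matched, and the last is the interval between the annotated ends of S100a1 and S100a13. Capitals mark matches on either strand to any of the 4 motifs named after the sequences.
S100b, chr10:76253586-76253835, plus strand: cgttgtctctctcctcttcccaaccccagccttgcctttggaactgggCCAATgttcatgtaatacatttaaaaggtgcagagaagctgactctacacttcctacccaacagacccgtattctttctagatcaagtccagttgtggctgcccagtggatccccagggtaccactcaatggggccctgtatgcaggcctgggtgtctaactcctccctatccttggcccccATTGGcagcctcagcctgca
S100a4, chr3:90603520-90603769, plus strand: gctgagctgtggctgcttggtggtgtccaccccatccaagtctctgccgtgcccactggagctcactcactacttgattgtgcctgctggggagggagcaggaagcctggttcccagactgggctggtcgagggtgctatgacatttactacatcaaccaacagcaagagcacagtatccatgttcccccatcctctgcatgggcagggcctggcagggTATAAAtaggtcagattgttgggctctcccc
S100a6, chr3:90612644-90612893, plus strand: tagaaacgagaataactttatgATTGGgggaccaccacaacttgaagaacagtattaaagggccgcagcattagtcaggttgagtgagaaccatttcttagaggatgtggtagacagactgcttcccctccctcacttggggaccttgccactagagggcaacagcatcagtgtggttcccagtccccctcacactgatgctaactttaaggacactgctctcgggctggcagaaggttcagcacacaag
Between S100a1 and S100a13, chr3:90514393-90514434, plus strand: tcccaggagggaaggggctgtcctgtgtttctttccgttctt

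The S100a4 window held TATAAA 31 bases before the start, a motif present in 12.4% of 32851 windows of the same length. The S100b window held CCAAT at 202 bases on the same strand and at 20 bases on the opposite strand, a motif of 33.8% of windows. The S100a6 window held CCAAT at 228 bases on the opposite strand and no match to the first motif. The motif GGGCGG was present in 32.7% of windows and ACAAAG, the core of motifs bound by Sox factors, in 16.5%. Neither stood in the 3 windows printed here, and a match or its absence describes only these letters. The S100a1 and S100a13 windows held none of the 4 motifs.

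Levels of different genes were compared per kilobase of exon, scaled to the same sum in every library. In WT, with all exons of a gene as its length, the highest length-scaled level was that of S100a11, at 1190 ± 282 (SD, n = 7). It was followed by S100a6 at 716 ± 113, S100b at 682 ± 159, S100a10 at 461 ± 100.5 and S100a4 at 367 ± 66.0. S100a1 (207 ± 45.7) and S100a13 (165 ± 42.2) were lower, S100a8 (19.4 ± 11.9) and S100a9 (17.4 ± 16.6) far lower, and S100a3 (0.220 ± 0.208) was near the limit of detection. Neighbours in this order kept it in all 7 WT libraries except S100a6 over S100b and S100a10 over S100a4, each in 5 of 7, and S100a8 over S100a9 in 3 of 7. With the longest transcript as length the order turned in part, with S100a6 at 1006 ± 153 above S100a11 at 956 ± 216, and S100a10 at 656 ± 138 above S100b at 548 ± 126. Of the summed length-scaled level of the 10 genes, S100a4 made up 9.60% in WT and 11.2% in Sipa1l2-/-. With the transgene its share was 21.9% for C3-PMP22 and 22.6% for double mutants. S100a11 made up 31.1% in WT and 25.7% in Sipa1l2-/-, against 20.1% in C3-PMP22 and 21.4% in double mutants. These are shares of 1 sum, so a higher S100a4 lowers the share of the others.

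**Figure D1:**
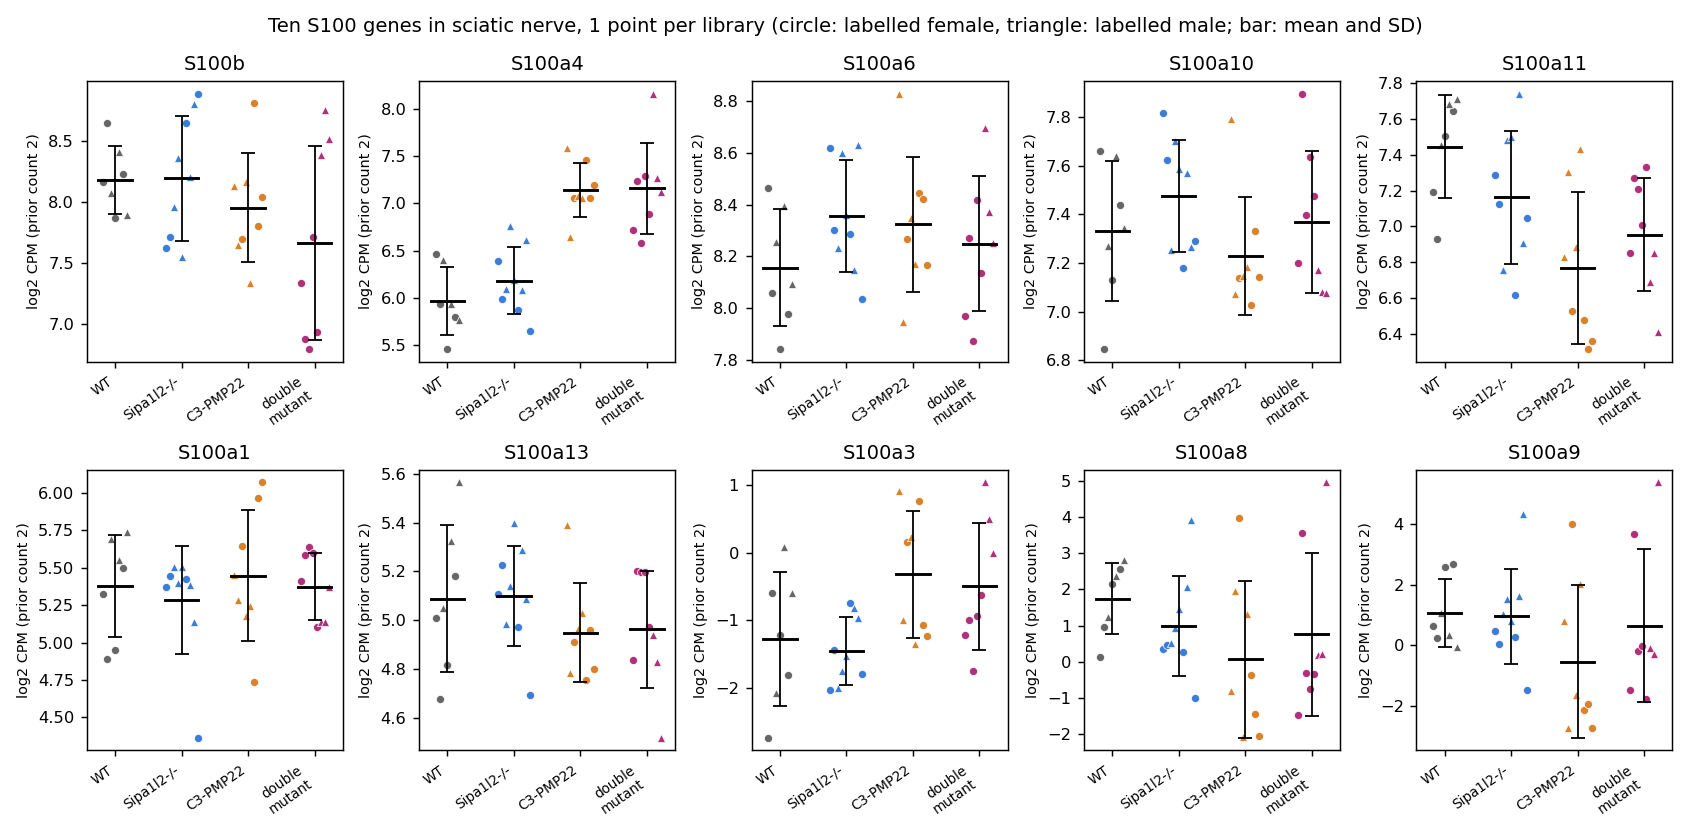
Level of each S100 gene as log2 CPM (vertical axes, prior count 2) in each library by genotype, with circles for labelled females, triangles for labelled males and bars for the mean and SD. S100a4 in C3-PMP22 and the double mutant lies above every WT library, while the genotypes overlap for the other 9 genes.

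S100b, the calcium sensor of Schwann cells, had a broad and overlapping range in every genotype. Its lowest, median and highest levels were 233, 288 and 401 CPM in WT, and 187, 295 and 474 CPM in Sipa1l2-/-. C3-PMP22 nerves held 161, 244 and 451 CPM, and double mutants 111, 186 and 433 CPM. The fitted log2 fold change against WT was -0.20 ± 0.27 (SE) for C3-PMP22 and -0.39 ± 0.28 for double mutants, both with intervals that include 0. The double mutant value joins 2 directions. Its mean log2 CPM minus that of WT was -1.09 among labelled females and 0.43 among labelled males. With the adipocyte score as a term the fitted values against WT were -0.63 ± 0.23 for C3-PMP22 and -0.78 ± 0.23 for double mutants. Over the 12 alternative settings they ran from -0.63 to -0.14 and from -0.78 to -0.34, with the adipocyte term at the low end of both. That term also moved Sipa1l2-/- against WT from 0.04 to -0.31. In bulk tissue, fewer Schwann cells and less RNA per cell cannot be told apart. The summed Schwann myelin markers had a median of 9457 CPM in the double mutant, against 15872 CPM in WT and 15776 CPM in C3-PMP22. In the double mutant they were 4773 to 10953 CPM in females and 19565 to 24075 CPM in males. Markers of non-myelinating Schwann cells, 8 of 8 measured, summed to 2872 to 4461 CPM in WT, just below the 4474 to 9678 CPM of C3-PMP22, and to 3231 to 7732 CPM in double mutants, which overlapped WT.

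S100a4, which binds non-muscle myosin and is secreted by several cell types, was the member with the clearest separation between genotypes. Its lowest, median and highest levels were 43.7, 60.8 and 88.1 CPM in WT and 49.9, 68.1 and 109 CPM in Sipa1l2-/-. The transgenic nerves held 99.5, 134 and 192 CPM (C3-PMP22) and 95.8, 145 and 286 CPM (double mutant). Every C3-PMP22 and every double mutant library lay above every WT library, and 13 of 16 transgenic libraries lay above all 16 others. Groups without overlap were found for 0.39% of all tested genes between C3-PMP22 and WT and for 0.48% between the double mutant and WT, and nothing further is read from this because that difference chose the gene. The fold against WT was 2.23 for C3-PMP22 (95% confidence interval 1.70 to 2.91) and 2.34 for double mutants (1.79 to 3.07). The fold of the double mutant over Sipa1l2-/- was 2.08 (1.62 to 2.67). Within the G series the transgenic mean was 1.47 log2 units higher, and within the plain series 0.79 higher. It was 1.11 higher among labelled females and 1.04 higher among labelled males.

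The summed markers of the cell types best known for S100a4 overlapped between the groups, while single macrophage markers were higher with the transgene. The summed fibroblast markers, 11 of 11 measured, ranged from 7499 to 11687 CPM in WT, 5810 to 12676 with C3-PMP22 alone and 8668 to 11636 with both alleles. The summed macrophage markers, 10 of 10 measured, ranged from 413 to 799 CPM in WT, 463 to 1219 with C3-PMP22 alone and 450 to 983 with both alleles. By labelled sex they were 769 to 983 CPM in female and 450 to 604 CPM in male double mutants. In WT they were 413 to 727 and 457 to 799 CPM. S100a4 was 95.8 to 157 CPM in those female double mutants and 139 to 286 CPM in the males. Of the 10 macrophage markers 9 had a fold change above 0 in double mutants against WT, with a median of 0.42 against 0.01 for all genes. In that comparison edgeR called 2 of 10 as higher, against 1.38% of all genes. These were Cx3cr1 (1.76 ± 0.26, adjusted p = 0.000295) and Aif1 (0.77 ± 0.20, adjusted p = 0.0432), named after their values were seen. Between C3-PMP22 and WT only Cx3cr1 was called (1.58 ± 0.26, adjusted p = 0.00107, edgeR). None of the 11 fibroblast markers was called by edgeR in either comparison. In C3-PMP22 against WT 3 of 11 had an unadjusted p under 0.05 by edgeR, where 18.1% of all genes had one. In double mutants against WT 1 of 11 had one, and the share over all genes is not given here, so nothing is read from it. No marker of either list was at 0 in all libraries. Of the 8 non-myelinating Schwann markers edgeR called 2 as higher in C3-PMP22 against WT, where 0.688% of all genes were called. In double mutants against WT it called 1 of 8. Of the 8, 7 and 5 had a fold change above 0, with medians of 0.60 and 0.42. As a description, their score had r = 0.45 with S100a4 within genotypes. The Schwann myelin score had r = 0.38 with S100a4 and the Schwann lineage score, from 5 markers, r = 0.37. The part of any of these markers in the S100a4 difference was not tested.

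The distance between S100a4 and S100b, the Schwann marker, was measured as S100a4 minus S100b in log2 CPM. It averaged -2.22 ± 0.40 in WT (SD, n = 7) and -2.02 ± 0.66 in Sipa1l2-/- (n = 9). The averages with the transgene were nearer to 0, at -0.81 ± 0.34 for C3-PMP22 (n = 8) and -0.51 ± 0.64 for double mutants (n = 8). The WT range, -2.72 to -1.67, did not meet the C3-PMP22 range, -1.36 to -0.28, or that of the double mutant, -1.49 to 0.36. The Sipa1l2-/- range, -3.24 to -1.24, overlapped both transgenic ranges. S100a4 was chosen by its higher level with the transgene, so nothing further is read from these ranges. S100a4 exceeded S100b in 1 library, a double mutant.

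**Figure D2:**
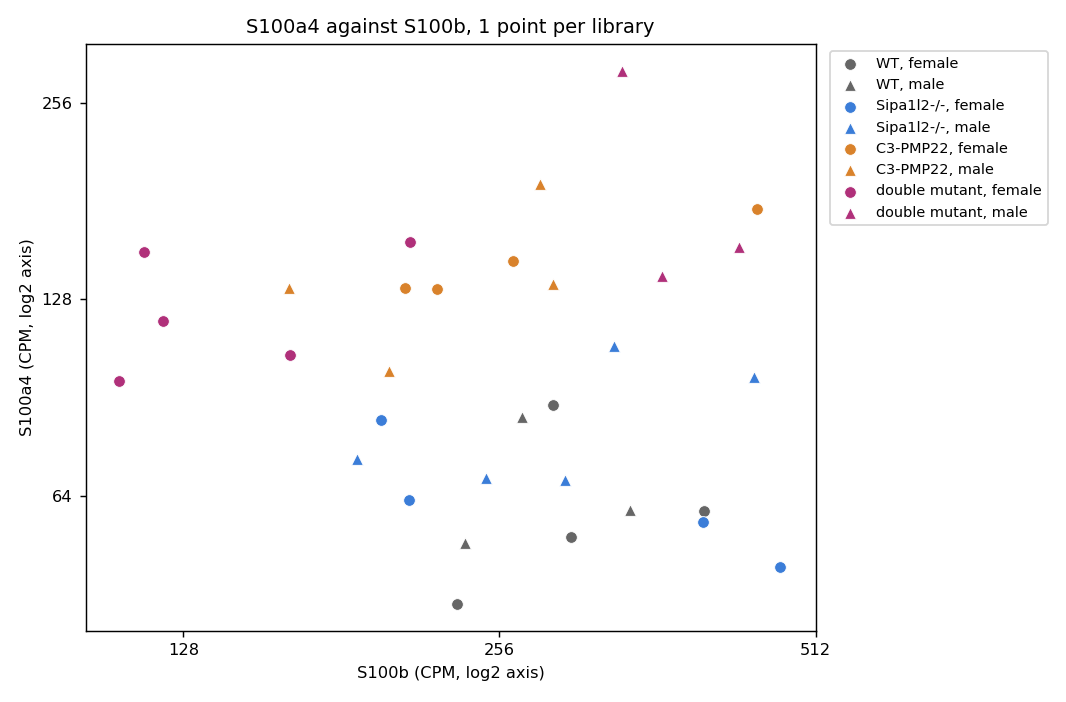
S100a4 CPM (vertical, log2 axis) against S100b CPM (horizontal, log2 axis) in each library, coloured by genotype with circles for labelled females and triangles for labelled males. All transgenic libraries lie above all WT libraries on the S100a4 axis (lowest 95.8 against highest 88.1 CPM), and the double mutants split along the S100b axis into 5 females at 111 to 210 CPM and 3 males at 335 to 433 CPM.

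S100a3, a neighbour of S100a4 that is best known from the hair cuticle, had between 0 and 27 counts per library. Its lowest, median and highest levels were 0, 0.280 and 0.912 CPM in WT and 0.0943, 0.197 and 0.449 CPM in Sipa1l2-/-. C3-PMP22 nerves held 0.240, 0.659 and 1.73 CPM, and double mutants 0.146, 0.436 and 1.90 CPM. All 4 ranges overlapped. The genes most like S100a3 were the creatine kinase gene Ckb (r = 0.78), Tax1bp3 (0.76) and P3h4 (0.75). The pooled log2 difference of transgenic from other genotypes was 1.39 ± 0.38 (SE). The exons of S100a3 and S100a4 overlap on the same strand with those of the model gene Gm42674, which had 3 counts in all libraries together, so reads could have been divided between them.

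S100a6 (calcyclin), which lies next to S100a4 in the cluster with S100a5 between them, had overlapping ranges in the 4 genotypes. WT nerves averaged 288 ± 45.3 CPM (SD, n = 7) and Sipa1l2-/- nerves 331 ± 49.8 CPM (n = 9). C3-PMP22 nerves averaged 325 ± 62.0 CPM (n = 8) and double mutants 309 ± 56.8 CPM (n = 8). Its pooled log2 difference with the transgene was 0.04 ± 0.08 (SE), against 1.11 ± 0.13 for S100a4. Across libraries, once genotype and sex means were removed, S100a6 was the gene most like S100a4 among 13297 genes compared, with r = 0.87 over 32 libraries. The next were the ribosomal protein genes Rpl31 (r = 0.75), Rpl23a (0.74), Rpl7 (0.74) and Rpl5 (0.72). S100a4 and S100a6 thus varied together from nerve to nerve, but their means differed in how far they stood from WT in the transgenic genotypes.

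S100a10 and S100a11 bind annexins, S100a10 as the partner of annexin A2 and S100a11 of annexin A1. S100a10 averaged 164 ± 31.3 CPM in WT (SD, n = 7) and 180 ± 28.7 CPM in Sipa1l2-/- (n = 9), with 152 ± 29.4 CPM in C3-PMP22 (n = 8), 168 ± 36.1 CPM in double mutants (n = 8) and overlapping ranges. S100a11 had its lowest, median and highest levels at 122, 181 and 210 CPM in WT and 97.9, 139 and 214 CPM in Sipa1l2-/-. C3-PMP22 nerves held 79.4, 103 and 173 CPM, and double mutants 84.9, 122 and 161 CPM. Of the C3-PMP22 libraries 6 of 8 were below every WT library, as were 4 of 8 double mutants. The log2 fold change against WT was -0.68 ± 0.17 (SE) for C3-PMP22 and -0.45 ± 0.17 for double mutants. Within the G series the transgenic mean of S100a11 stood at -0.77 log2 units from the others, and within the plain series at -0.18. Double mutants minus WT gave -0.99 within the G series and -0.06 within the plain series. By labelled sex this was -0.97 in males and -0.18 in females.

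The summed adipocyte markers, 8 of 8 measured, moved alongside S100a11. Their median was highest in WT, at 8841 CPM (range 3814 to 12799). It was 5723 CPM in Sipa1l2-/- (2646 to 14928), and with the transgene 4584 CPM in C3-PMP22 (2522 to 12019) and 5380 CPM in double mutants (2974 to 9505). Within genotypes S100a11 had r = 0.90 with the adipocyte score over 32 libraries. With that score as a term of the fit, the C3-PMP22 difference from WT was -0.35 ± 0.09 and that of the double mutant -0.21 ± 0.09, and the part of these cells in the difference was not tested further. The genes most like S100a11 were the complement gene Cfb (r = 0.93), the lipid droplet gene Plin1 (0.92) and the peroxidasin gene Pxdn (0.92).

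S100a1, which acts on calcium release in muscle, and S100a13, which takes part in export of the growth factor FGF1, showed no separation of genotypes. S100a1 means lay between 39.7 ± 7.81 CPM in Sipa1l2-/- (SD, n = 9) and 45.2 ± 13.7 in C3-PMP22 (n = 8). S100a13 means lay between 31.0 ± 4.81 CPM for C3-PMP22 (n = 8) and 34.5 ± 7.38 for WT (n = 7). The 2 genes, whose starts face away from each other across 42 bases, had r = 0.53 within genotypes, while S100a13 had r = 0.72 with S100a10. The genes most like S100a1 were Txn2 (r = 0.92), Rpl36al (0.90) and Eif5a (0.90), and those most like S100a13 were Copz1 (0.84), Tmed3 (0.80) and Ehd1 (0.80).

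S100a8 and S100a9 form calprotectin, a heterodimer stored in neutrophils. Both were near the floor in most nerves and high in a few. The median of S100a8 was 4.27 CPM in WT, against 1.28 CPM in Sipa1l2-/-, and 0.516 and 0.821 CPM in the transgenic genotypes without and with Sipa1l2-/-. Double mutant 8 held 31.0 CPM of S100a8 and 41.3 CPM of S100a9, the highest values of both. C3-PMP22 3 held 15.7 and 15.9 CPM, Sipa1l2-/- 8 held 14.9 and 19.9 CPM, and double mutant 2 held 11.7 and 12.4 CPM. No genotype as a whole was high, and 3 genotypes each held at least 1 such nerve. Within genotypes the neutrophil score, from 6 of 11 listed markers that passed the filter, had r = 0.74 with S100a8 and 0.90 with S100a9. The 3 genes most like S100a8 were S100a9 (r = 0.80), Slc4a1 (0.69) and the neutrophil granule gene Ngp (0.68). Those most like S100a9 were S100a8 (0.80), Ngp (0.77) and Chil3 (0.76). Within genotypes the erythrocyte score, from 5 of 5 listed markers, had r = 0.47 with S100a8 and 0.53 with S100a9. Ly6g, a defining neutrophil marker, was at 0 counts in 5 of 7 WT libraries and 7 of 8 double mutants.

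**Figure D3:**
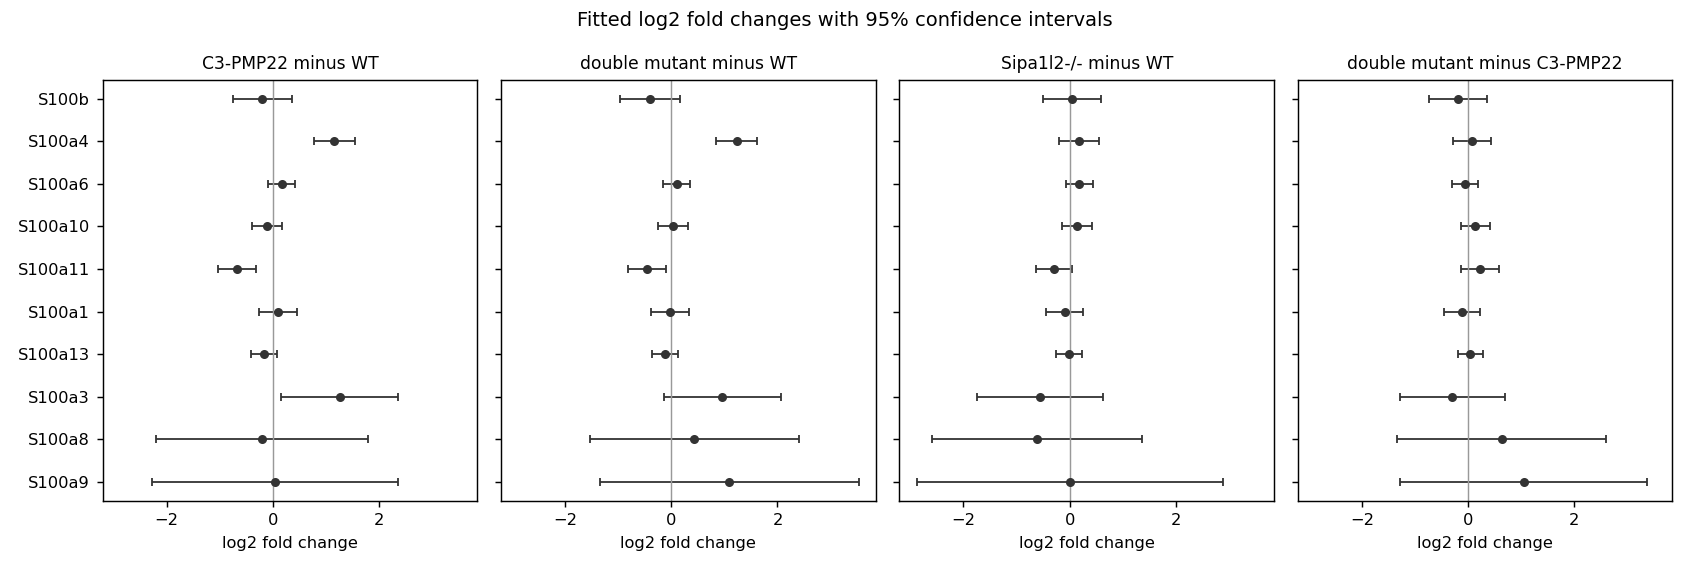
Fitted log2 fold changes of the 10 genes (points) with 95% confidence intervals (bars) for 4 comparisons. S100a4 stands at 1.16 and 1.23 in the panels against WT that carry the transgene and at 0.17 and 0.07 in the panels for loss of Sipa1l2.

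The loss of Sipa1l2 was the comparison that had no part in choosing the genes. Between Sipa1l2-/- and WT, edgeR's quasi-likelihood test called 0 of 10 S100 genes at a Benjamini-Hochberg adjusted p under 0.05, with 0% of all tested genes called. The count at an unadjusted p under 0.05 was 0 of 10, against 5.21% of all genes, and DESeq2 also called 0. The closest was S100a11 at -0.29 ± 0.17 (SE, adjusted p = 0.961), lower than the WT median in 8 of 9 libraries, and -0.03 ± 0.09 with the adipocyte score as a term. The interval for S100a4 ran from -0.20 to 0.55 and that for S100b from -0.51 to 0.59. For S100b that interval covers levels between 0.702 and 1.504 times that of WT, and these data do not tell such levels from that of WT. The interval does not give a limit of detection.

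On the transgenic background, the double mutant against C3-PMP22 gave 0 of 10 called by edgeR, with 0% of all genes called. DESeq2 called 0 of 10, and 0 of 10 had an unadjusted p under 0.05, against 8.07% of all genes. S100a4 differed by 0.07 ± 0.18 (SE, interval -0.29 to 0.44, adjusted p = 0.880 by edgeR) and S100b by -0.20 ± 0.27 (interval -0.74 to 0.35, adjusted p = 0.783). The test of whether the transgene difference itself depended on Sipa1l2 also called 0 of 10 by edgeR and by DESeq2, with 0% of all genes called by edgeR. S100a11 was the 1 gene of 10 with an unadjusted p under 0.05 in that test (0.52 ± 0.24, adjusted p = 0.700), where 6.41% of all genes did. The term for S100a4 was -0.10 ± 0.25 (adjusted p = 0.919).

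Between labelled males and females, edgeR called 0 of 10 S100 genes and 1.34% of all genes, and DESeq2 called 0 of 10. The 2 with an unadjusted p under 0.05, where 14.7% of all genes had one, were S100a3 (0.86 ± 0.37, adjusted p = 0.279) and S100a4 (0.26 ± 0.13, adjusted p = 0.334), both with the higher mean in males.

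Those results join the sexes. In the double mutant the labelled sexes did not overlap for S100b, S100a11, S100a10 and S100a3. S100a10 was 147 to 238 CPM in females and 135 to 144 CPM in males. S100a3 in males began at 0.846 CPM, above every female. For S100a11 the sexes nearly met, at 115.45 CPM in the lowest female and 115.39 CPM in the highest male. S100b and S100a11 are described here because only they were called in the test below. Female double mutants held 111, 122 and 210 CPM of S100b as lowest, median and highest values (n = 5), and males 335, 366 and 433 CPM (n = 3), without overlap. Labelled C3-PMP22 females held 208 to 451 CPM and males 161 to 288 CPM. A genotype-by-sex term was added after these values had been seen. In it, the log2 difference of the double mutant from C3-PMP22 was -0.99 ± 0.28 (SE) in females and 0.70 ± 0.32 in males. The difference between those differences was 1.69 ± 0.42 (adjusted p = 0.0190, edgeR).

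S100a11 went the opposite way, with 115 to 161 CPM in female and 84.9 to 115 CPM in male double mutants. Labelled C3-PMP22 females held 79.4 to 91.9 CPM and males 114 to 173 CPM. Its differences were 0.73 ± 0.18 in females and -0.47 ± 0.21 in males, and they differed by -1.20 ± 0.28 (adjusted p = 0.0152, edgeR). These 2 of 10 S100 genes were called, against 11.2% of all tested genes, and 4 had an unadjusted p under 0.05, against 28.2%. In females alone the same test called 2 of 10, against 15.1% of all genes, with 3 of 10 at an unadjusted p under 0.05, against 32.2%. In males alone edgeR called 0 of 10 and 0% of all genes, with 3 of 10 at an unadjusted p under 0.05, against 5.4%. In double mutants the summed Schwann myelin markers were 4773 to 10953 CPM in females and 19565 to 24075 CPM in males, without overlap. The summed adipocyte markers were 4689 to 9505 CPM in females and 2974 to 4672 CPM in males, and the summed macrophage markers 769 to 983 and 450 to 604 CPM, and the part of any of them in these differences was not tested. Sipa1l2 itself differed in the same direction as S100b (1.36 ± 0.39, adjusted p = 0.0288).

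Sex and identifier series cannot be told apart within the double mutant. With a series term in the fit neither gene passed, at 1.32 ± 0.53 (adjusted p = 0.121) for S100b and -1.36 ± 0.33 (adjusted p = 0.0612) for S100a11. Without the 2 C3-PMP22 libraries whose sex-linked transcripts went against their label, the values were 1.88 ± 0.47 (adjusted p = 0.0226) and -1.13 ± 0.33 (adjusted p = 0.0393). In females alone without those 2, S100b was -1.18 ± 0.34 (adjusted p = 0.0438, edgeR) and S100a11 was 0.65 ± 0.25 (adjusted p = 0.124). That left only C3-PMP22 3 and 6 as labelled females of their genotype, and no fit gave the libraries left out the other sex. Without double mutant replicate 7, S100b was 1.51 ± 0.45 (adjusted p = 0.0638).

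**Figure D4:**
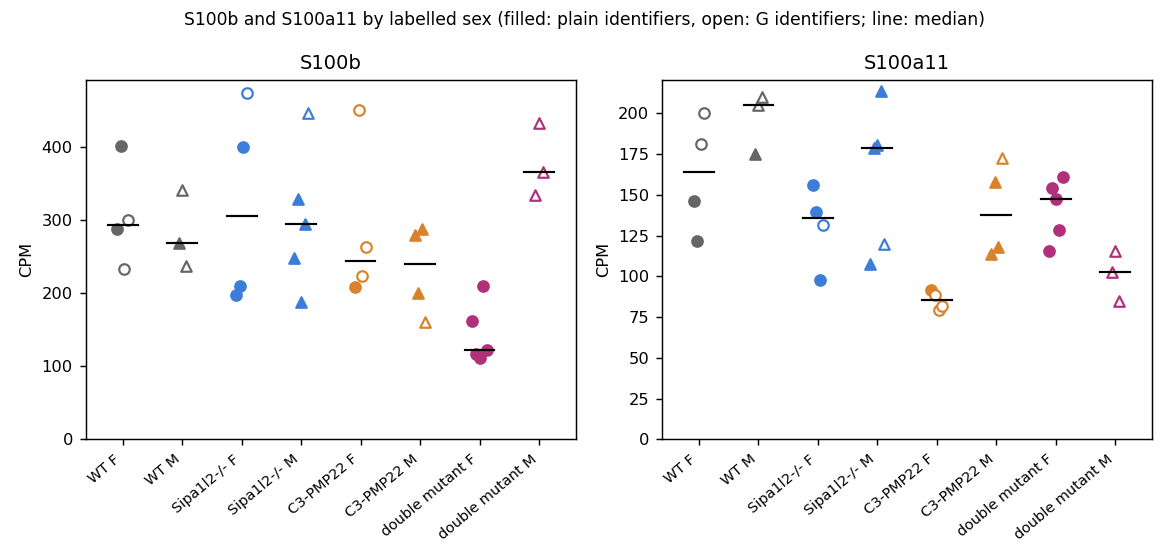
S100b and S100a11 CPM (vertical axes, from 0) by genotype and labelled sex, with filled symbols for plain and open symbols for G identifiers and a line at the median. S100b in the 5 female double mutants (111 to 210 CPM) does not overlap with the 3 males (335 to 433 CPM), while S100a11 has the higher median in those females.

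How each gene varied from nerve to nerve was compared with scores of cell-type markers and with its binding partners. Genotype means were removed, and 12 relations were tested by permutation within genotypes (100000 resamples, two-sided) with Benjamini-Hochberg adjustment over the 12. S100b followed the Schwann myelin score with r = 0.95 and rho = 0.95 (both p = 1e-05, the smallest these permutations give, adjusted p = 3e-05 for r and 6e-05 for rho), and r = 0.94 without the 2 libraries farthest from the median. With the non-myelinating Schwann score r was 0.90 and rho 0.90 (adjusted p = 3e-05 and 6e-05 by permutation), and r = 0.91 without the 2 farthest. Against the adipocyte score r was -0.58 and rho -0.64 (p = 0.00039 and 0.00024, adjusted p = 0.000936 and 0.00072 by permutation), and r = -0.61 without the 2 farthest. The genes most like S100b were Scrn1 (r = 0.98), the myelin basic protein gene Mbp (0.97), Stmn1 (0.97), Pea15a (0.97) and Plekhb1 (0.96).

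Within the plain series (19 libraries) r of S100b was 0.92 with the myelin score (adjusted p = 0.00024 by permutation) and -0.50 with the adipocyte score (0.0773). Within the G series (13 libraries) r was 0.90 with the myelin score (adjusted p = 0.0547 by permutation), 0.67 with the non-myelinating score (0.206) and -0.44 with the adipocyte score (0.645). These scores share their libraries and their scaling to library size with S100b.

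S100b and S100a4 did not pass, with r = 0.37 (p = 0.0729, adjusted p = 0.109 by permutation) and rho = 0.39 (p = 0.0438, adjusted p = 0.0751), and r = 0.28 without the 2 farthest libraries. S100a4 had r = 0.07 with the fibroblast score and r = 0.08 with the macrophage score (adjusted p = 0.708 for both by permutation). Within the plain series S100a4 had r = 0.70 with the macrophage score (adjusted p = 0.0105 by permutation) and r = 0.11 within the G series (0.780). With the fibroblast score it had r = 0.56 (adjusted p = 0.0653 by permutation) and rho = 0.62 (0.0298) within the plain series and r = -0.13 (0.780) within the G series. S100a8 and S100a9 had r = 0.81 and rho = 0.64 (p = 1e-05 and 0.00042, adjusted p = 3e-05 and 0.00101 by permutation), and r = 0.66 without the 2 farthest libraries. Their r was 0.69 within the plain series (adjusted p = 0.0773 by permutation) and 0.90 within the G series (0.102).

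Of the annexin partners, S100a11 and Anxa1 had r = 0.78 and rho = 0.78 (p = 1e-05 and 2e-05, adjusted p = 3e-05 and 8e-05 by permutation), and r = 0.72 without the 2 farthest libraries. Their r was 0.83 within the plain series (adjusted p = 0.00044 by permutation) and 0.69 within the G series (0.112). S100a10 and Anxa2 had r = 0.34 and rho = 0.34 (adjusted p = 0.109 and 0.100 by permutation), and did not pass. As a description, S100a10 had r = 0.77 with the macrophage score, and the genes most like it were the thioredoxin gene Txn1 (0.87), Tubb6 (0.87) and Tmed3 (0.85). Of the other relations tested, S100a4 with S100a3 (r = 0.28, adjusted p = 0.200 by permutation) and S100a6 with the fibroblast score (r = 0.21, 0.325) did not pass. Within the plain series that last relation had r = 0.63 (adjusted p = 0.0636 by permutation) and rho = 0.65 (0.0230), and within the G series r = -0.10 (0.780). S100a1 with the muscle score did not pass by r (adjusted p = 0.101 by permutation), with rho = 0.42 (adjusted p = 0.0367). That rho had an adjusted p of 0.102 by permutation without the 2 farthest libraries, 0.114 without C3-PMP22 7 and 8, 0.456 within the plain and 0.489 within the G series.

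**Figure D5:**
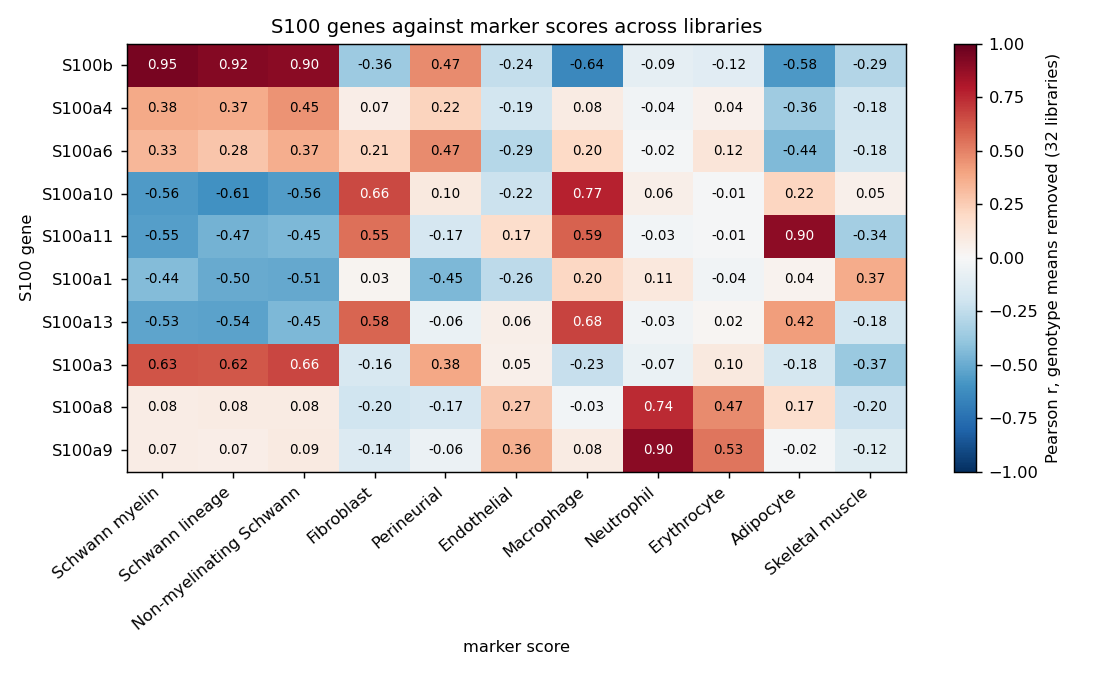
Pearson r over 32 libraries, genotype means removed, of each S100 gene (rows) with scores of cell-type markers (columns), from blue at -1 to red at 1. The values include S100b with the Schwann myelin score (0.95), S100a11 with the adipocyte score (0.90) and S100a9 with the neutrophil score (0.90).

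Proteins known to bind S100 proteins, among them annexins, myosins, ryanodine receptors and the receptors Ager and Tlr4, were measured with a list of 30 genes, of which 26 passed the filter. Between C3-PMP22 and WT edgeR called 0 of 26, against 0.688% of all genes. In that comparison 7 of 26 had an unadjusted p under 0.05, against 18.1% of all genes, and DESeq2 called 1. Over both transgenic genotypes against the others 1 of 26 was called, against 3.32% of all genes. It was Lgals3, which encodes the lectin galectin-3, at 0.53 ± 0.10 (SE, adjusted p = 0.00102, edgeR). Its level was 59.8 ± 10.7 CPM in WT (SD, n = 7) and 57.3 ± 12.8 CPM in Sipa1l2-/- (n = 9). With the transgene it was 87.2 ± 15.7 CPM in C3-PMP22 (n = 8) and 79.3 ± 17.5 CPM in double mutants (n = 8). The median log2 fold change of the 26 was -0.01, against 0.02 for all tested genes. Between the sexes 1 of 26 was called, against 1.34% of all genes, and 8 of 26 had an unadjusted p under 0.05, against 14.7%. The called gene was Anxa2, at 0.36 ± 0.09 higher in males (adjusted p = 0.0293, edgeR). Its call was lost in 5 of 10 other settings (highest adjusted p 0.186) and without any 1 of WT 5, WT 7, Sipa1l2-/- 2, C3-PMP22 2 or double mutant 7 (highest 0.0578). No call stood in the comparisons for loss of Sipa1l2.

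The S100 fused-type genes, which join an S100 domain to long repeats and serve skin and hair, were listed as 7, and only Tchh passed the filter. Tchh was lower with the transgene, at 6.39 ± 2.35 CPM in WT (SD, n = 7), 1.28 ± 0.466 CPM in C3-PMP22 (n = 8) and 1.46 ± 0.726 CPM in double mutants (n = 8). Its pooled log2 difference was -2.26 ± 0.22 (SE, adjusted p = 8.63e-08, edgeR). The remaining S100 genes in the table numbered 7, of which S100a16 and S100a7a passed the filter. S100a16 means lay between 57.7 and 61.2 CPM in the 4 genotypes, and neither was called in any comparison.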

How the data were processed

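The authors deposited expected counts, 1 value for each gene in each library. Per the submitters' processing notes, Trim Galore, FastQC and RSEM were used with the build GRCm38 (mm10), with no versions recorded. All values were whole numbers, and whether or where they had been rounded was not stated. Columns were matched to samples through the column letter in each description. The fit used edgeR 4.0.16 in R 4.3.3, with filterByExpr by genotype (minimum count 10, minimum total 15), TMM, a quasi-likelihood test, terms for genotype and labelled sex, and 27 residual degrees of freedom. DESeq2 1.42.0 was an alternative. A call is a Benjamini-Hochberg adjusted p under 0.05 over 15403 genes. The script was tested on simulated data. Scores are means of log2 CPM (prior count 2) over markers, centred over libraries. Likeness was ranked by r, naming the 5 genes nearest S100b and S100a4 and the 3 nearest each other member. From the companion lists of partners, fused-type and other S100 genes, every gene called in the main edgeR fit was named. Genes called only under other settings were counted but not named. Of the called cell-type markers only those of macrophages were named. Members and lists were chosen with earlier results of these data known. The genotype-by-sex term was added after seeing the data. The strand setting of the counting was not stated, and S100b overlaps Dip2a on the other strand. Total counts are 11030976 to 16990990 per library and limit precision for S100a3, S100a8 and S100a9.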

Additional observations from a re-analysis of the deposited data

Results flagged for a closer look

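Among 40 groups of 1 gene in 1 genotype, 4 held a library far from the others by its gap to the nearest one, and chance alone gives about 1 in 20. S100a4 in double mutant 6 stood at 8.16 log2 CPM (286 CPM), with the next at 157 CPM. Without that library the double mutant differed from WT by 1.06 ± 0.17 (SE) for S100a4, and from C3-PMP22 by -0.10 ± 0.16. S100a1 in Sipa1l2-/- 9 stood at 4.36 log2 CPM (20.4 CPM), below the next at 34.99 CPM. In C3-PMP22 1, S100a10 stood at 7.79 log2 CPM (221 CPM, next 161 CPM) and S100a13 at 5.39 log2 CPM (41.8 CPM, next 32.4 CPM). The members S100b and S100a11 differed between sexes in the double mutant's distance from C3-PMP22, by a test of the difference itself added after seeing the data, S100b by 1.69 and S100a11 by -1.20 log2 units in males minus females.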

How the results depend on the processing

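None of the 10 S100 genes was called for loss of Sipa1l2, the interaction or sex under any of the alternative settings or with any 1 library left out. Values near 0 changed sign as follows, all as log2 fold changes. With total counts alone, S100a1 was 0.042 and S100a6 0.031 (double mutant against C3-PMP22), S100a9 was -0.028 and S100b -0.0096 (Sipa1l2-/- against WT), and S100a1 was 0.092 and S100a10 0.054 between the sexes. Without C3-PMP22 7 and 8, S100a1 was 0.14 (double mutant against C3-PMP22), 0.12 (sexes) and -0.30 (genotype by sex). Between the sexes S100a1 was also 0.0013 with no low-count filter, 0.011 with a series term and 0.14 with a muscle score. For Sipa1l2-/- against WT, S100a9 was -0.059 with DESeq2, -0.00559 with no low-count filter, -0.15 with only the compared genotypes, -0.034 with a muscle score and -0.59 with an adipocyte score, which also gave S100a13 0.067 and S100b -0.31.

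Replicate numbers did not pair the samples (mean r of same-numbered deviations 0.11, lowest -0.56, over 45 combinations, with 7 of 32 libraries closest to their own number). With the replicate block the S100 genes called stayed at 0 for loss of Sipa1l2, the interaction and sex, and genes called between the sexes went from 207 to 93. That replicate block gave S100a1 0.0083, S100a9 -0.45, S100a13 0.070 and S100b -0.29 (Sipa1l2-/- against WT), and S100a9 -0.15 between the sexes.

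Leaving out 1 library at a time gave these ranges. Between the sexes S100a1 ran from -0.065 to 0.044, S100a9 from -0.47 to 1.88 and S100a10 from -0.085 to 0.0022. For the double mutant against C3-PMP22, S100a3 ran from -0.59 to 0.034, S100a4 from -0.10 to 0.15, S100a6 from -0.13 to 0.0064, S100a8 from -0.36 to 2.76 and S100a9 from -0.37 to 3.42. For Sipa1l2-/- against WT, S100a9 ran from -0.89 to 0.75, S100a13 from -0.069 to 0.070 and S100b from -0.10 to 0.15. In the genotype-by-sex term S100a1 ran from -0.020 to 0.35, S100a8 from -0.31 to 5.83 and S100a9 from -2.07 to 6.38, and the S100 genes called ran from 1 to 3. That count was 0 with a series term, against 2. The partner list gave 0 to 1 calls in C3-PMP22 and double mutants against WT, in the double mutant against Sipa1l2-/- and between the sexes.

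DESeq2 called 1 partner gene in each of the C3-PMP22 and double mutant comparisons with WT and in the double mutant against Sipa1l2-/-. The double mutant against WT had 1 with the replicate block and 3 with an adipocyte score. The double mutant against Sipa1l2-/- had 1 with a series term and 1 with an adipocyte score, which gave 3 for both transgenic genotypes. Anxa2 between the sexes was lost, leaving 0, with total counts alone, no low-count filter, the replicate block, a muscle score and without C3-PMP22 7 and 8. With the longest transcript as length, S100a6 (1006) passed S100a11 (956) and S100a10 (656) passed S100b (548) in WT. Within the G series, r was 0.90 for S100b with the myelin score, 0.67 with the non-myelinating and -0.44 with the adipocyte score, -0.13 for S100a4 and -0.10 for S100a6 with the fibroblast score, 0.90 for S100a8 with S100a9 and 0.69 for S100a11 with Anxa1. Within the plain series r was -0.50 for S100b with the adipocyte score, 0.70 for S100a4 with the macrophage score and 0.69 for S100a8 with S100a9. Without the 2 farthest libraries S100a4 had r = -0.039 with the fibroblast and -0.0052 with the macrophage score. The cause of these changes was not tested, and counts of 0 to 27 per library limit S100a3.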
